A study of Mus musculus with 8 samples.

Results

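The IgLON family of mouse consists of 5 genes, Lsamp, Ntm, Opcml, Negr1 and Iglon5, which encode cell surface adhesion proteins of the immunoglobulin superfamily. The family was taken up because Lsamp had the smallest p-value among all genes compared between mutant and control palatal shelves, at 662 ± 158 normalised counts in mutants and 2003 ± 304 in controls (SD, n = 4 each). The other genes were added by family membership alone. All 5 of 5 names were found among the 55536 genes of the table, and all 5 were among the 16647 genes tested. Because Lsamp was picked by its difference between these groups, its values are given as a description and without a test.

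The mutants were Yapfl/fl;Tazfl/fl;Col2Cre embryos and the controls were Yapfl/fl;Tazfl/fl embryos, so both groups carried the floxed alleles of Yap and Taz (gene symbols Yap1 and Wwtr1) and the Cre transgene marked the mutants. Col2Cre places Cre recombinase under regulatory sequence of Col2a1, the type II collagen gene best known from cartilage, and floxed alleles are lost in cells in which it has been active. Both posterior palatal shelves, the paired ridges that will close the palate, were dissected from each E14.5 embryo before elevation, epithelium and mesenchyme together, and total RNA was sequenced in 4 libraries per group. Nothing in the labels says that every library came from a different animal. The p-values here judge a group difference against the spread between libraries, which may not be that between animals.

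IgLON proteins are held in the outer leaflet of the plasma membrane by a glycosylphosphatidylinositol (GPI) anchor and bind one another in like and unlike pairs, within a membrane and between cells. They are best known from the nervous system, where they act in neurite outgrowth and synapse formation, and metalloproteinases can release their ectodomains. Outside the nervous system, loss of LSAMP has been described in human osteosarcoma and silencing of OPCML in human ovarian cancer.

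Depth was even, with 29025089 to 32437977 reads per library. Yap1 had 8221.2 to 8745 normalised counts in mutants and 9094.6 to 10086 in controls, so the groups did not overlap. Of all genes tested, 1.91% were likewise lower in mutants without overlap. Wwtr1 had 3649.9 to 4574.3 in mutants and 4448.6 to 5305.2 in controls, with 1 mutant library inside the control range. All 8 of 8 epithelial and 8 of 8 palatal mesenchyme markers were measured above the count minimum, so both tissues of the labels were represented. Mutant replicate 2 stood apart in several marker sums, though not in that of skeletal muscle. Each difference of an IgLON gene is given below with and without this library.

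Lsamp (ENSMUSG00000061080), which encodes the limbic system-associated membrane protein, lies on chromosome 16 from 39984361 to 42181679 on the plus strand, in coordinates of the table that equal those of the GRCm38 annotation. The gene covers 2197 kb and has 10 annotated transcripts, 5 of them protein coding. RefSeq gives it 2 starts, 1548 kb apart, and the deposited counts are per gene, so reads from either start enter the same value. The annotation also has 2 coding transcripts that begin farther downstream, at 42143984 and 42144025, and their reads enter it as well. The promoter windows around the RefSeq starts are printed because the count of Lsamp pools transcripts from both. Each holds 300 bases, from 250 before the start to 50 after it, from RefSeq on GRCm38.p6, 5′ to 3′. The upstream start is at chr16:39984114-39984413 on the plus strand and the downstream start at chr16:41532576-41532875 on the plus strand. A promoter of Ntm, at chr9:29413403-29413702 on the minus strand, is shown with them because it alone among the family held the letters searched for.
Lsamp promoter 1: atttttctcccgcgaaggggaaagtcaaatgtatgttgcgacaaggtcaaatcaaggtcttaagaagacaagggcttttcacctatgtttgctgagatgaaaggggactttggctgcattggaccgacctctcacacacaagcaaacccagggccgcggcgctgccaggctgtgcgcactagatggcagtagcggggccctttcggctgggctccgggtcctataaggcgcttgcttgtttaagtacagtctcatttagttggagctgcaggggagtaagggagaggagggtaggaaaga
Lsamp promoter 2: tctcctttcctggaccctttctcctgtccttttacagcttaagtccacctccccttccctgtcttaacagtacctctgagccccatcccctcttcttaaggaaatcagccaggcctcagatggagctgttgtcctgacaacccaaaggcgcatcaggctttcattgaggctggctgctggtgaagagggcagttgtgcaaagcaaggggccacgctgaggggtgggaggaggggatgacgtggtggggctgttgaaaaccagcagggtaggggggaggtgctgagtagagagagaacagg
Ntm promoter 2: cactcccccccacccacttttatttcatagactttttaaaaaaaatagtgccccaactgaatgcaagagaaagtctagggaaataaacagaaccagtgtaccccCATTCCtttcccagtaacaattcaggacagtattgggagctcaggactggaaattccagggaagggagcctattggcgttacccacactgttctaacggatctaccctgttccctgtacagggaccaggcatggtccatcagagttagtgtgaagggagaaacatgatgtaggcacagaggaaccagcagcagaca

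Capitals mark the letters GGAATG or their reverse complement CATTCC, the core bound by TEAD factors, the DNA-binding partners of YAP and TAZ. Among 7 promoters of the 5 genes, 1 held the motif, the Ntm window printed above, at position -146 relative to the start. Neither window of Lsamp held it. Of all 32851 RefSeq promoter windows of the same length, 4817 (14.7%) held it on either strand. A match is only a match of letters, and its absence here concerns these windows alone.

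Lsamp had 808.1, 444.8, 654.1 and 742.4 normalised counts in mutant replicates 1 to 4, against 1738.8, 2003.1, 2428.4 and 1840.3 in control replicates 1 to 4. The groups were far apart, with the lowest control library 2.15 times the highest mutant library. Mutant replicate 2 was the lowest of the mutants and control replicate 3 the highest of the controls. Mutant shelves on average held 33.1% of the control level, and the log2 difference was -1.62 (SE 0.168, 95% interval -1.99 to -1.25, on log2 of the normalised count plus 1). That interval takes no account of the choice of Lsamp for its difference. Without mutant replicate 2 the log2 difference was -1.44. These values rested on 470 to 831 reads per mutant library and 1633 to 2367 per control library. Counting error alone would give a coefficient of variation of 3.47% to 4.61% in mutants and 2.06% to 2.47% in controls. The libraries varied by 23.9% in mutants and 15.2% in controls, so the spread between libraries was several times that of counting.

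By limma's moderated test with Benjamini-Hochberg adjustment over all genes at 0.05, 4 of 16647 genes (0.0240%) were called, 4 lower in mutants and 0 higher. Lsamp was 1 of them and the only IgLON gene called, but it was chosen for this p-value, so its call is no test. With mutant replicate 3, control replicate 2 or control replicate 4 left out, 0 genes were called (981, 870 and 1045 at an unadjusted limma p below 0.05), so Lsamp was not called there. Without overlap between groups stood 1 of 5 IgLON genes, again Lsamp, against 3.77% of all genes tested, or 1.91% lower and 1.86% higher in mutants. Since Lsamp was chosen from this contrast, nothing is read from these shares. Among all tested genes Lsamp ranked 1st by p-value and 86th by the size of the fall, or 11th among the 13619 genes with a mean of at least 50 normalised counts.

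**Figure D1:**
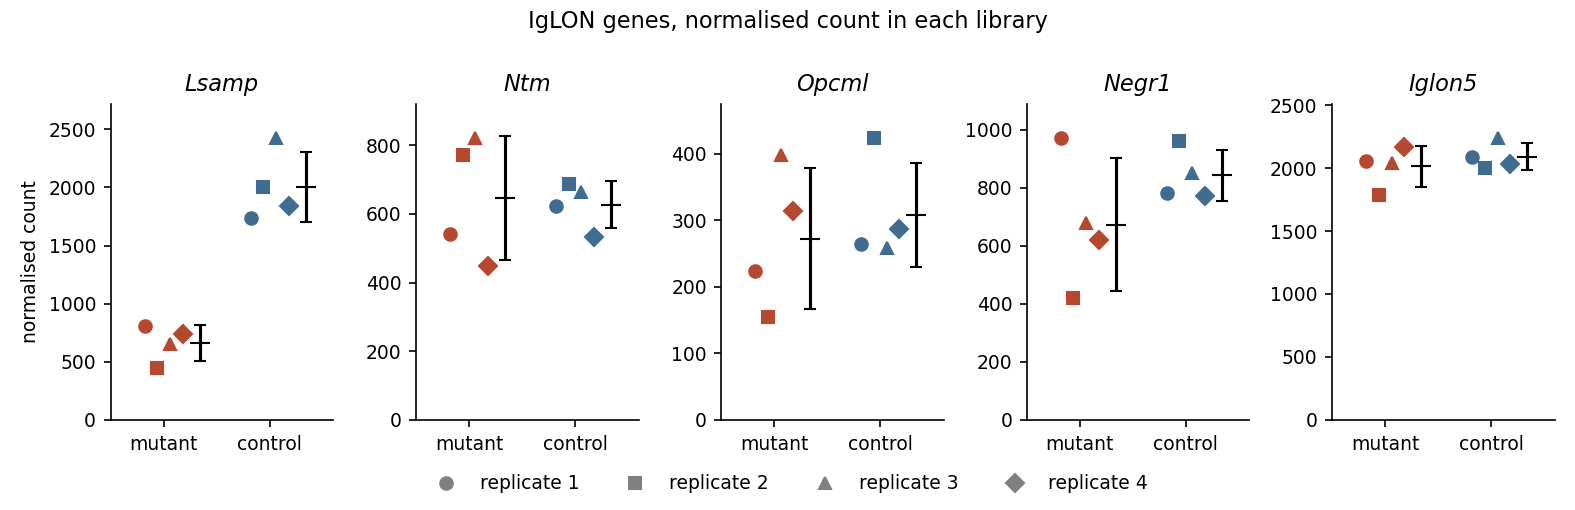
Normalised count (y axis, linear from 0) of each IgLON gene in the 4 mutant libraries (left, red) and the 4 control libraries (right, blue); symbols give the replicate, and bars are means with SD. Lsamp is the gene whose groups do not overlap, with mutants from 444.8 to 808.1 and controls from 1738.8 to 2428.4, while the groups of the other genes overlap.

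Ntm (ENSMUSG00000059974) and Opcml (ENSMUSG00000062257) are neighbours on chromosome 9, and the 2 genes are 69.3 kb apart on opposite strands. Ntm, which encodes neurotrimin, an adhesion protein that affects neurite outgrowth, lies from 28994750 to 29963141 on the minus strand. It had 542.6, 772.3, 822 and 447.1 normalised counts in mutants, against 622.9, 687.2, 663.8 and 533.2 in controls. The lowest count of Ntm and the 2 highest were in mutant libraries, so the mutant range enclosed the control range. The log2 difference was 0.0060 (SE 0.181, 95% interval -0.39 to 0.40, limma adjusted p = 0.997). Without mutant replicate 2 it was -0.095, so its sign was not settled by these libraries.

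Opcml, which encodes the opioid-binding cell adhesion molecule, lies from 27790775 to 28925410 on the plus strand of the same chromosome. It had 224.6, 154.3, 398.5 and 313.6 normalised counts in mutants, against 264.1, 424.6, 258.5 and 287.7 in controls. Its 2 lowest libraries were mutants, and 1 control library was the highest. The log2 difference was -0.24 (SE 0.274, 95% interval -0.83 to 0.36, limma adjusted p = 0.893). Without mutant replicate 2 it was 0.0082. Opcml had the lowest counts of the family and the widest interval, so a fall or a small rise could not be told apart at this spread.

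Negr1 (ENSMUSG00000040037), whose protein acts as a neuronal growth regulator and whose human gene region is linked to body weight, lies on chromosome 3 from 156561794 to 157316445 on the plus strand. It had 972.4, 418.3, 678.3 and 619 normalised counts in mutants, against 782.6, 961.5, 851.5 and 771.9 in controls. In Negr1 3 of the 4 mutant libraries were below every control, but mutant replicate 1 was the highest library of all. The log2 difference was -0.38 (SE 0.202, 95% interval -0.82 to 0.06, limma adjusted p = 0.773). It was -0.58 without mutant replicate 1 and -0.18 without mutant replicate 2, and neither passed the threshold.

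Iglon5 (ENSMUSG00000013367), the target of autoantibodies in human anti-IgLON5 disease, is the compact gene of the family, with 17.2 kb on chromosome 7 from 43472904 to 43490075 on the minus strand. It had 2055.7, 1786, 2041.6 and 2167.6 normalised counts in mutants, against 2091.3, 1999.2, 2241.7 and 2031.8 in controls. The groups of Iglon5 overlapped, with mutant replicate 2 the lowest library. The log2 difference was -0.057 (SE 0.0735, 95% interval -0.22 to 0.10, limma adjusted p = 0.909), and this interval was the narrowest in the family. Without mutant replicate 2 the difference was -0.00098.

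Together, 4 of 5 IgLON genes had a lower mean log2 value in mutants, against 8330 of the 16647 genes tested. Their median log2 difference was -0.24, against -0.00015 over all genes. Both figures include Lsamp, for whose difference the family was taken up, so nothing is read from them. An unadjusted limma p below 0.05 was reached by 1 of 5, against 6.57% of all genes tested, and as it was Lsamp nothing is read from this. In mutant replicate 2, 4 of 5 IgLON genes had their lowest value of the 8 libraries, all but Ntm. The spread of log2 values was wider in mutants than in controls for 5 of 5 genes, against 47.7% of all genes tested. The SD of Negr1 was 0.50 in mutants and 0.15 in controls, and that of Iglon5 was 0.12 in mutants and 0.073 in controls. Mutant replicate 2 lay farthest from the mutant mean in all but Ntm, by -0.54 in Lsamp and -0.17 in Iglon5. The spread without this library was not computed, so nothing is read from the 5 of 5.

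**Figure D2:**
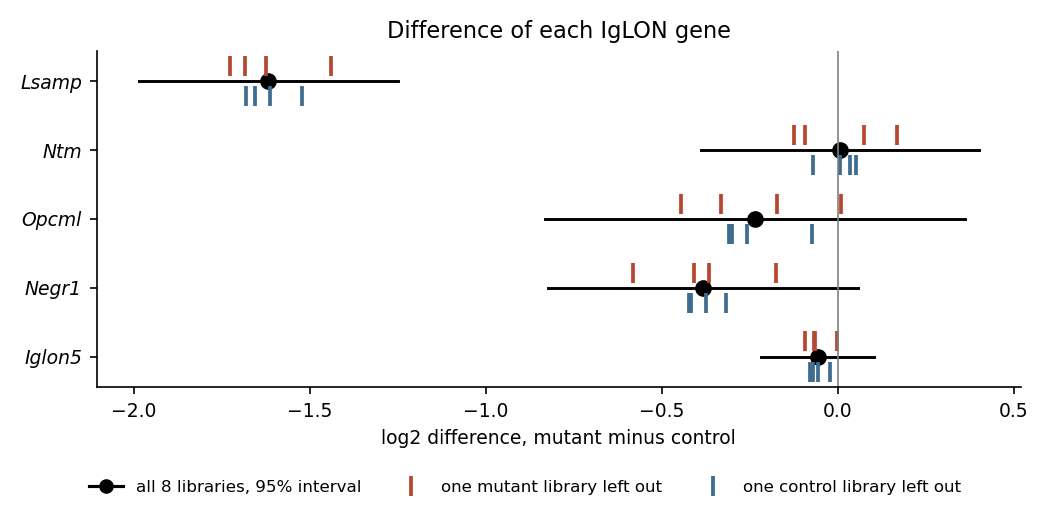
Log2 difference, mutant minus control (x axis), of each IgLON gene (rows); points and lines are the estimate from 8 libraries with its 95% interval, and ticks are estimates with 1 mutant library (red, above) or 1 control library (blue, below) left out. Lsamp stays between -1.73 and -1.44 when any library is left out, and the intervals of the other genes include 0.

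Per kilobase of exon, the levels of the genes can be set side by side. In mutants the order was Iglon5 with 768 ± 61.5 normalised counts per kb, Ntm with 80.0 ± 22.3, Negr1 with 64.0 ± 21.8, Lsamp with 38.5 ± 9.19 and Opcml with 18.8 ± 7.31 (SD, n = 4). In controls it was Iglon5 with 797 ± 41.0, Lsamp with 116 ± 17.7, Negr1 with 80.1 ± 8.30, Ntm with 77.6 ± 8.39 and Opcml with 21.3 ± 5.39 (SD, n = 4). Lsamp was thus 4th of 5 in mutants and 2nd of 5 in controls. Lsamp spanned 25.8 to 46.9 counts per kb in mutants and overlapped its neighbours Negr1 and Opcml in that order, while in controls it overlapped none of the others by this length. Ntm and Negr1 overlapped in both groups. Among 16641 genes with a length, Lsamp stood at the 27.3rd percentile of level per kb in mutants and at the 45.5th in controls, while Iglon5 stood at the 87.7th in mutants and the 88.4th in controls.

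Of the summed IgLON level per kb, Lsamp made up 3.94 ± 0.709% in mutants and 10.6 ± 1.06% in controls (SD, n = 4 each). Iglon5 made up 79.3 ± 2.28% in mutants and 73.0 ± 2.02% in controls. The sum itself was 969 ± 77.2 normalised counts per kb in mutants and 1093 ± 59.0 in controls. All 4 mutant sums, from 853 to 1010, lay below the control sums, from 1041 to 1177. The sum contains Lsamp and is given as a description. With the length of the longest single transcript in place of all exons, Lsamp made up 6.11% in mutants and 15.8% in controls and kept its place in the order of both groups. By that length the control ranges of Lsamp, 198 to 276 normalised counts per kb, and Ntm, 168 to 217, overlapped.

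No other annotated gene with reads overlapped Lsamp. The annotation places 9 other genes inside or across its span, 2 across Ntm, 3 across Opcml, 11 across Negr1 and 0 across Iglon5, and none of them passed the count minimum. Those in Lsamp and Ntm were at 0 in all 8 libraries, and the highest elsewhere had 13.6 normalised counts, in the span of Negr1. The strand setting of the counting is not known here, so reads from an antisense partner could not be separated if there were any.

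The genes on either side of Lsamp did not pass the test. Gap43, a growth cone protein gene 66.8 kb beyond its end, had 1979 ± 238 normalised counts in mutants and 2276 ± 392 in controls (SD, n = 4 each), which is a log2 difference of -0.19 with SE 0.120 (limma adjusted p = 0.792). Igsf11, an adhesion gene of the immunoglobulin superfamily 957 kb before its start, had 127 ± 72.5 in mutants and 89.7 ± 3.99 in controls, or 0.35 on the log2 scale with SE 0.325 (limma adjusted p = 0.864), with 1 mutant library far above the rest. Of the 56 other tested genes whose start lay within 5 Mb of the Lsamp start, a distance chosen after the data were seen, 35 were lower and 21 higher in mutants. Of these 56, 0 were called by limma, 0 by edgeR and 0 by DESeq2, and 5 had an unadjusted limma p below 0.05. Over all genes tested, limma called 4, edgeR 5 and DESeq2 31, and 6.57% had such an unadjusted p. Nothing about the region is therefore read from the 0 calls. The log2 differences of the 56 genes ran from -0.67 in Fbxo40 to 1.52 in Cfap44, with a median of -0.047. Lsamp lay below all of them, but it was chosen for its difference, so nothing is read from that place.

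**Figure D3:**
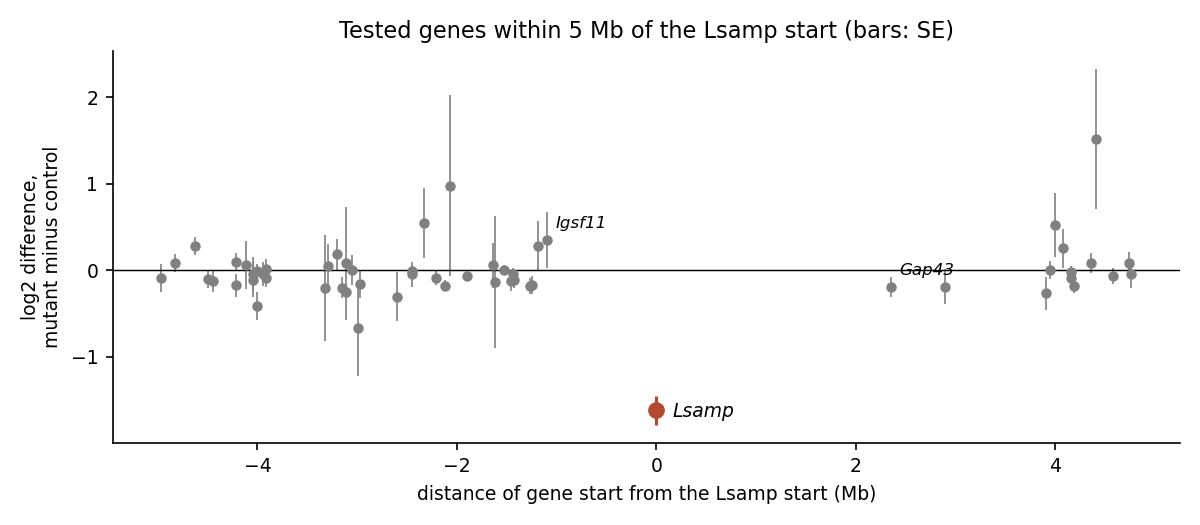
Log2 difference, mutant minus control (y axis), of each tested gene by the distance of its start from the Lsamp start in Mb (x axis); bars are the SE. Lsamp (red) lies at -1.62, and the 56 other genes lie between -0.67 and 1.52 with a median of -0.047.

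The neighbours of the other IgLON genes did not pass either. Beside Opcml and Ntm, Igsf9b, an adhesion gene of inhibitory synapses, had a log2 difference of 0.29 (limma adjusted p = 0.758) and Snx19, a sorting nexin gene, 0.023 (limma adjusted p = 0.971). Beside Negr1, Zranb2, a splicing factor gene, had -0.099 (limma adjusted p = 0.782), and Lrriq3, at 16.9 ± 7.71 normalised counts in mutants and 8.07 ± 7.59 in controls, had 1.52 with an SE of 0.933 (limma adjusted p = 0.791). Beside Iglon5, Vsig10l had -0.14 (limma adjusted p = 0.912) and Cd33, a sialic acid-binding receptor gene of myeloid cells, had 0.46 (limma adjusted p = 0.864).

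The genes whose values over the 8 libraries were most like those of Lsamp were sought among 12480 genes with a mean of at least 50 normalised counts, leaving out predicted and sex-linked genes. Ankle2 (Pearson r = 0.977), Frg2f1 (0.970), Frk (0.962), Serpinb8 (0.951) and Thbd (0.947) led. Frk encodes a Src-related kinase, Serpinb8 a serine protease inhibitor and Thbd the thrombin receptor thrombomodulin. Every one of these 5 was lower in mutants, with log2 differences from -0.11 in Ankle2 to -0.79 in Serpinb8, and none passed the adjusted test (limma adjusted p from 0.576 to 0.754). An r over all 8 libraries reflects mainly the gap between the groups, which the choice of Lsamp fixed. By the same measure and among the same 12480 genes, which leave out Lsamp itself, Yap1 ranked 9th (r = 0.943) and Wwtr1 72nd (r = 0.872). By deviations from the group means Yap1 ranked 911th (r = 0.719) and Wwtr1 1699th (r = 0.585).

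Within groups, after taking each library's deviation from its group mean, different genes came up, and 0 of the 5 were shared. Plxnd1 (r = 0.988), a semaphorin receptor gene, Adgra2 (0.987), an adhesion G protein-coupled receptor gene, Col23a1 (0.987), a transmembrane collagen gene, Chst14 (0.986), a dermatan sulfate sulfotransferase gene, and Mfap2 (0.984), a microfibril gene, followed Lsamp most closely over the 8 libraries. In contrast to Lsamp, their log2 differences between the groups were small, from -0.15 in Plxnd1 to -0.0033 in Chst14 (limma adjusted p from 0.754 to 0.997). Chst14 had 2328, 1505.8, 2066.6 and 2364.8 normalised counts in mutants, against 1875.1, 2069.5, 2335.1 and 1908.1 in controls. Like Lsamp it was lowest in mutant replicate 2, and it was highest among controls in control replicate 3, but its group ranges overlapped. These genes were selected for their likeness out of 12480, so their r is a description. Without mutant replicates 1 and 2, the libraries farthest from the median of Lsamp, their r over the 6 left was 0.947 to 0.984. The 6 were among the 8 used for the choice, so this high r largely follows from it and is no check.

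Among the IgLON genes, the deviations of Iglon5 (r = 0.864, Spearman's rho = 0.810) and Negr1 (r = 0.821, rho = 0.762) went with those of Lsamp over the 8 libraries. Those of Opcml (r = 0.435, rho = 0.238) and Ntm (r = -0.456, rho = -0.286) did so less or in the other direction. By this r, among the 12480 genes searched for likeness, Iglon5 ranked 272nd, Negr1 439th, Opcml 2769th and Ntm 10300th. Many genes outside the family thus followed Lsamp more closely than any IgLON gene did. Over the 6 libraries without mutant replicates 1 and 2, r was 0.773 for Iglon5, 0.280 for Negr1, 0.063 for Opcml and -0.122 for Ntm, so the relation of Negr1 with Lsamp rested on those libraries. The libraries share their dissection and size factor with every gene in them, and these values are given without a test.

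**Figure D4:**
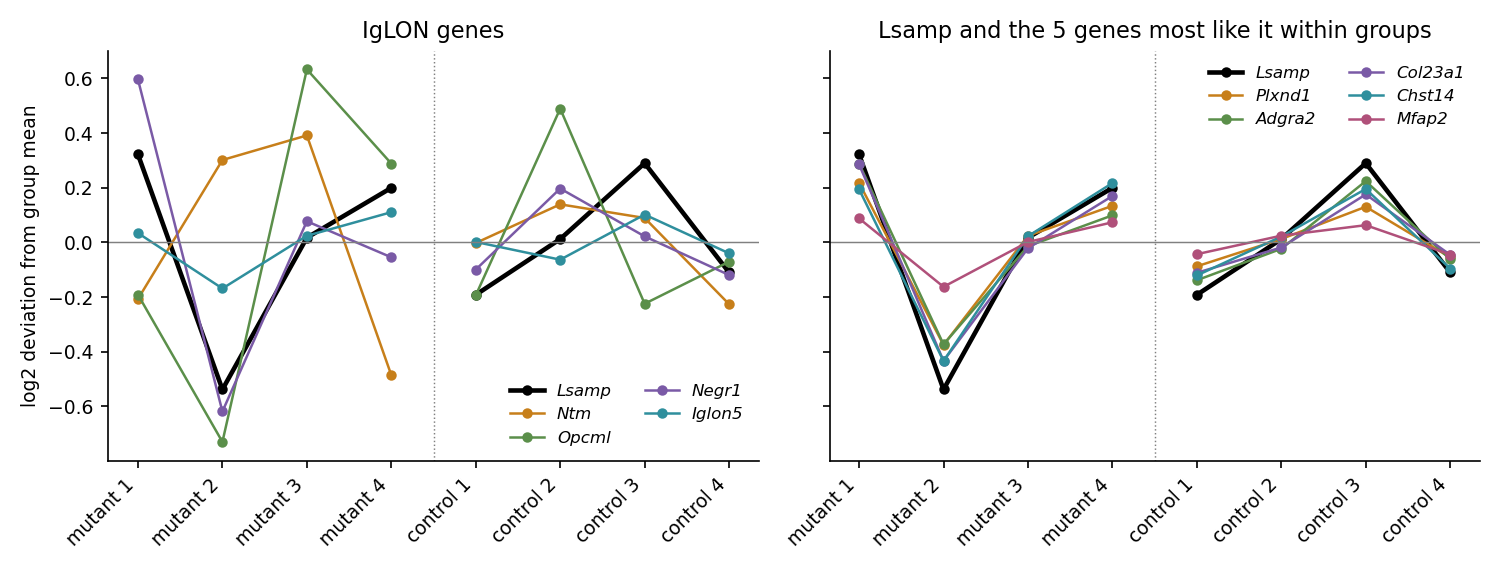
Log2 deviation of each library from its group mean (y axis) in the 4 mutant libraries (left of the dotted line) and the 4 control libraries (right), for the IgLON genes (left panel) and for Lsamp with the 5 genes most like it within groups (right panel). Lsamp (black) is lowest in mutant replicate 2 and, among controls, highest in control replicate 3; Plxnd1, Adgra2, Col23a1, Chst14 and Mfap2 follow it with r from 0.984 to 0.988, and Ntm does not (r = -0.456).

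Genes of reported IgLON partners and of a shedding protease did not pass the test. Adam10, which encodes a protease that sheds NEGR1, had 4583 normalised counts in mutants and 4721 in controls on average (log2 difference -0.040, SE 0.0646, limma adjusted p = 0.932). Fgfr2, a growth factor receptor gene whose product binds NEGR1, had 5255 in mutants and 5648 in controls (-0.11, SE 0.121, limma adjusted p = 0.891). Npc2, a cholesterol-binding lysosomal protein gene whose product also binds NEGR1, had 5326 in mutants and 5705 in controls (-0.10, SE 0.0722, limma adjusted p = 0.817). All 3 of 3 were lower on average, with a median of -0.10, and 0 of them were called or had an unadjusted p below 0.05. Over all genes tested, limma called 0.0240%, and 6.57% had an unadjusted limma p below 0.05.

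Of the 28 genes listed for making, transferring and trimming the GPI anchor, 26 were tested, 15 lower and 11 higher in mutants, and their median was -0.011 on the log2 scale. Limma called 0 of them, as did edgeR and DESeq2 (0 each). An unadjusted limma p below 0.05 was reached by 1 of the 26, against 6.57% of all genes tested. That gene was Pgap1, which encodes the enzyme that removes the inositol acyl chain from the anchor, with a log2 difference of -0.24 (limma adjusted p = 0.754). Pign had -0.18 (limma adjusted p = 0.754), Pigw, an inositol acyltransferase gene, 0.52 (limma adjusted p = 0.773), and Dpm3, a subunit of dolichol phosphate mannose synthase, 0.25 (limma adjusted p = 0.775).

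Other adhesion genes of the immunoglobulin superfamily were spread to both sides of 0. Of 9 other GPI-anchored members, contactins and Thy1 among them, 6 were lower and 3 higher in mutants, with a median of -0.20. Cntn5 had the smallest p, at 43.1 normalised counts in mutants and 67.6 in controls (log2 difference -0.53, SE 0.373, limma adjusted p = 0.813). Of the 6 NCAM and L1 genes, 2 were lower and 4 higher (median 0.11), with Ncam2 at -0.28 and Ncam1 at -0.27 (limma adjusted p = 0.773 and 0.775). Of 9 CADM and nectin genes, 4 were lower and 5 higher (median 0.040), and Cadm4, a cell adhesion molecule gene, had the smallest p, with 0.39 (limma adjusted p = 0.754). Of 11 tested other adhesion genes, 4 were lower and 7 higher (median 0.13), Mcam, the melanoma cell adhesion molecule gene, being at 0.19 (limma adjusted p = 0.754). In all of these lists limma, edgeR and DESeq2 called 0 genes each. An unadjusted limma p below 0.05 was seen in 0 GPI-anchored, 0 NCAM and L1, 1 CADM or nectin and 1 other adhesion gene. Over all genes tested the share was 6.57%.

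**Figure D5:**
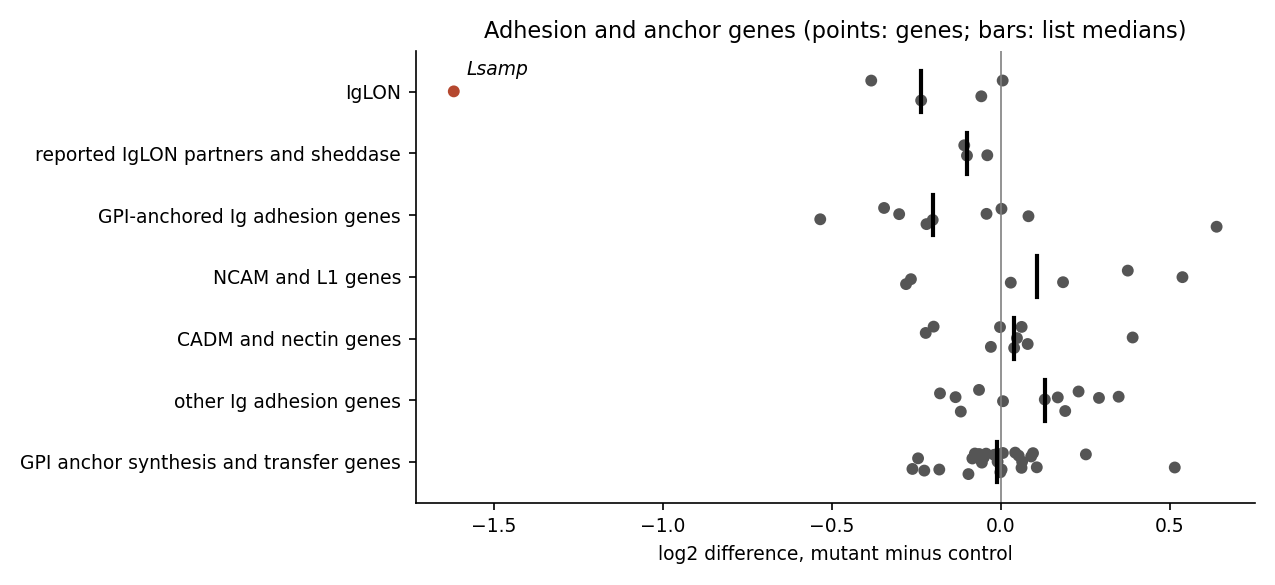
Log2 difference, mutant minus control (x axis), of each tested gene (points) in 7 lists (rows), with list medians as bars. Lsamp (red) lies at -1.62, and every other gene of the 7 lists lies between -0.53 and 0.64.

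Levels of cell type markers are given for each list, and limma called none of the markers. In bulk tissue, fewer cells of a type and less RNA per cell cannot be told apart. Of 12 osteogenic markers 10 were tested and 10 of 10 were lower in mutants, at a median of -1.26 on the log2 scale. Their summed counts were 6787 to 23193 in mutants and 24338 to 45714 in controls. Bglap was at 0 in all libraries and Bglap2 did not pass the count minimum. Limma called 0 of the 10 osteogenic markers and edgeR 0, against 4 and 5 of the 16647 genes tested. DESeq2 called 2 (Ibsp and Phex), against 31 of the 14046 genes to which it gave an adjusted p. Of the 10, 6 had an unadjusted limma p below 0.05, against 6.57% of all genes tested. In mutant replicates 1 to 4 the osteogenic sums were 20182, 6787, 10901 and 23193, against 45714, 39262, 24338 and 36902 in control replicates 1 to 4. Among mutants, replicates 2 and 3 were lowest in both the osteogenic sum and Lsamp, replicate 2 lowest of all, and replicates 1 and 4 changed places. Ibsp weighed heavily in these sums. It had 2434.9 normalised counts in mutant replicate 1 and 5680.4 in mutant replicate 4, a wider gap than between their sums. In control replicate 1 it had 23279 of the 45714. Among controls, replicate 3 had the lowest osteogenic sum and the highest count of Lsamp, and replicate 1 the highest sum and the lowest count.

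Of 7 chondrogenic markers 6 were lower and 1 higher in mutants (median -0.73), with sums of 9550 to 23315 in mutants and 19270 to 33079 in controls. Of 6 endothelial markers 5 were lower and 1 higher (median -0.24), with sums of 10667 to 14212 in mutants and 14303 to 15818 in controls. Neuronal markers, the cells in which IgLON genes are best known, were 5 lower and 5 higher (median 0.011), with sums of 3913 to 8909 in mutants and 2777 to 7080 in controls. Of 8 Schwann cell and crest glia markers 1 was lower and 7 higher (median 0.46; sums of 3481 to 7183 in mutants and 3431 to 4064 in controls). All 8 of 8 epithelial markers were higher (median 0.29; sums of 22885 to 40256 in mutants and 20300 to 28468 in controls). Of 8 palatal mesenchyme markers 2 were lower and 6 higher (median 0.059; sums of 58784 to 74220 in mutants and 60185 to 69907 in controls). Skeletal muscle markers were 3 lower and 3 higher (median -0.0074), with sums of 10998 to 43767 in mutants and 23157 to 29342 in controls. Limma, edgeR and DESeq2 called 0 genes in each of these 7 lists. An unadjusted limma p below 0.05 was seen in 3 of 7 chondrogenic, 3 of 6 endothelial, 0 of 10 neuronal and 2 of 8 glial markers. It was also seen in 3 of 8 epithelial, 1 of 8 mesenchymal and 0 of 6 muscle markers. Over all genes tested the share was 6.57%.

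Mutant replicate 2, lowest for Lsamp, Opcml, Negr1 and Iglon5, also had the lowest osteogenic (6787), chondrogenic (9550) and endothelial (10667) sums and the highest epithelial (40256) and neuronal (8909) sums of the 8 libraries. Not every gene of a list went with its sum. Col2a1 alone had 6633.7 of the 9550, and Acan, Col11a2 and Matn1 were lower in mutant replicate 3. Stmn2, Nefl and Nefm were not highest in mutant replicate 2, while the other neuronal markers were. Of the 8 libraries, the skeletal muscle sum was highest in mutant replicate 3 (43767) and lowest in mutant replicate 4 (10998). The count of Ntm was also highest (822) and lowest (447.1) in these libraries. The part of all these marker levels in the values of the IgLON genes was not tested.

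The first number of each title was shared by some libraries of both groups, and the labels do not say what it marks. Among libraries with 2057, Lsamp had 742.4 normalised counts in 1 mutant and 1922 on average in 2 controls (log2 difference -1.37). Among libraries with 3602, it averaged 549 in 2 mutants and had 2428.4 in 1 control (-2.17). Negr1 was also lower in mutants in both sets (-0.48 and -0.68). Opcml had log2 differences of -0.16 and -0.059, but with 3602 its mean count was higher in mutants (276.4 against 258.5). Ntm (-0.44 and 0.26) and Iglon5 (0.10 and -0.23) differed in sign between the sets. These sets hold too few libraries for a test.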

How the data were processed

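The signal values were deposited by the authors as normalised counts, that is, reads of a gene over a size factor of the library, given to 1 decimal. Whole reads were recovered from them: 99.9% to 100% of values between 50 and 5000 lay within 0.051 normalised counts of a whole read, the error that rounding allows. This tolerance replaced 0.05 reads, under which 94.4% or more were whole. The log2 values deposited by the authors are variance-stabilised and served in 1 alternative. Per the submitters' processing notes, STAR 2.7.2 and DESeq2 were used. Read counter, strand setting and build: not given in the sources used here. Starts and ends equalled GENCODE release 21 (GRCm38) for 49909 of 52403 shared IDs (95.2%).

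Mutants were compared with controls on log2(normalised count + 1) by limma 3.58.1 (R 4.3.3) with its trend option, two-sided, with Benjamini-Hochberg adjustment at 0.05, over the 16647 genes with at least 10 in at least 4 of 8 libraries. Recovered reads were also fitted with edgeR 4.0.16 and with DESeq2 1.42.0. Further alternatives were a pseudocount of 0.5 or 8, leaving out the filter or asking for a mean of 50, 3 other scalings, stabilised values, the first title number as a block, leaving out each library, and transcript length. Levels per kb used the joined exons of all transcripts.

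The members, lists, tests and naming rule were chosen with earlier results of these data known. Named were the IgLON genes, overlapping genes, the nearest tested coding genes, the 5 genes most like Lsamp by each measure, from each list the 4 tested genes of smallest p at most, and genes needed to explain a count; not all are printed. Replicates were numbered in label order. In the 4 pairs of a mutant and a control library that share a first title number, deviations from the group means correlated with r from -0.00774 to 0.1. Pairs that do not share it had r from -0.0851 to 0.0757. As deviations sum to 0 within each group, these values cannot settle whether the number marks a pairing. The main fit did not use it, and it served as a block in 1 alternative. Protein sequences and raw reads were not used here. Plots used matplotlib 3.10.9 (Python 3.11.15).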

Additional observations from a re-analysis of the deposited data

Results flagged for a closer look

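Each group of 4 libraries was checked for a library whose gap to the nearest other was most of the range of the group, which chance gives in about 1 of 20 groups. Of 90 groups over 45 genes, 6 were marked, and 0 of the 10 groups of IgLON genes.

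Igsf11, the neighbour before Lsamp, had 234.4 normalised counts in mutant replicate 1, against 77.2 to 97.5 in the other mutants. Igsf9 had 7181.7 in mutant replicate 2, against 4893 to 5240 in the other mutants. Dpm3 had 372.9 in mutant replicate 2, against 465 to 479 in the other mutants. Kirrel had 6325.6 in mutant replicate 1, against 5729 to 5740 in the other mutants. Ncam1 had 4777.9 in control replicate 3, against 6758 to 7138 in the other controls. Snx19, a neighbour of Ntm, had 2672.6 in control replicate 3, against 2449 to 2466 in the other controls.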

How the results depend on the processing

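Over 19 alternatives the log2 difference of Lsamp was negative in each, from -1.77 to -0.86. The smallest was -0.86 with the stabilised values, whose scale is compressed at low counts, and the values with 1 library left out ran from -1.73 to -1.44. Negr1 was negative in 19 of 19 (-0.58 to -0.16; 1 library left out, -0.58 to -0.18) and Iglon5 in 19 of 19 (-0.094 to -0.00098, both with 1 library left out). Opcml was negative in 18 of 19 and turned to 0.0082 without mutant replicate 2 (1 library left out, -0.45 to 0.0082). Ntm turned negative in 4 of 19, to -0.087 with the block, -0.095 without mutant replicate 2, -0.12 without mutant replicate 3 and -0.069 without control replicate 4 (1 library left out, -0.12 to 0.17). None of these 4 genes passed the threshold under any of the 19 (lowest adjusted p 0.527). The cause of the reversals was not tested.

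With the first title number as a replicate block, which the labels do not call a litter, 6 genes were called and Lsamp had -1.77, Opcml -0.11, Negr1 -0.58 and Iglon5 -0.063. DESeq2 called 31 genes (28 lower, 3 higher), against 4 by limma and 5 by edgeR; the cause was not tested. Leaving out 1 library gave 0 to 11 called genes: 0 without mutant replicate 3, control replicate 2 or control replicate 4 (981, 870 and 1045 genes at unadjusted limma p below 0.05), so that Lsamp was not called there either, 8 without mutant replicate 4 and 11 without control replicate 3. The median log2 difference of all genes was 0.030 with library totals that leave out the ribosomal RNA locus and nearer 0 with the other scalings. With transcript length in place of all exons, levels per kb in controls became 228 for Lsamp, 198 for Ntm, 169 for Negr1 and 46.2 for Opcml, so Ntm and Negr1 changed places.

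Intervals and counting errors cover these 8 libraries only. With 4 against 4, a change of Opcml of up to -0.83 or 0.36 lay within its interval. Gene counts cannot tell the starts of Lsamp apart.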
